A study of Mus musculus with 8 samples.

Results

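The genes described are those of the ISG15 conjugation system in the mouse macrophage-like line RAW264.7: Isg15, Uba7, Ube2l6, Herc6 and Usp18. They were taken by gene name from the table of raw counts, where they were 5 of 42454 genes, and all 5 passed the filter on low counts that left 11081 genes for testing. Isg15 had fewer than the filter's minimum of 10 counts in each of 4 libraries and passed only through the 4 libraries where it was high, so a high-to-low difference was a condition of its being tested. RNA was sequenced in 8 libraries, 2 for each of 4 labels. As described at deposit, the libraries labelled mock came from cells given the solvent DMSO. Those labelled TubB were described as from cells given Tubuloside B, a phenylethanoid glycoside of plants. Those labelled LPS_IFNg were described as from cells given lipopolysaccharide (LPS, a component of the bacterial envelope) and interferon-gamma (IFN-γ). Those labelled LPS_IFNg_TubB were described as from cells given both agents with Tubuloside B. The doses described were LPS at 10 ng/ml and IFN-γ at 20 ng/ml for 24 h. Marker genes of the stimulus, given below, did not follow these labels. No dose of Tubuloside B was given in the sources used here, and no time was given for mock or TubB. All groups share the line, which carries no engineered allele in the labels.

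ISG15 is a ubiquitin-like protein made in response to interferon. The E1 enzyme UBA7 activates it, the E2 enzyme UBE2L6 (UBCH8) carries it, and HERC6, the mouse counterpart of human HERC5, is the main E3 ligase that joins it to target proteins. USP18 removes ISG15 from its targets, and separately binds the type I interferon receptor and dampens its signalling. In macrophages, LPS and interferons are known to induce all these genes, through STAT2, IRF9 and other interferon regulatory factors, which bind interferon-stimulated response elements. ISG15 is also secreted and acts on leukocytes through the integrin LFA-1.

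The marker genes of the stimulus did not follow the labels. Nos2, the inducible nitric oxide synthase that LPS and IFN-γ switch on, had a mean of 166 ± 14.6 CPM (SD, n = 2; CPM are counts scaled to a common library size) in both libraries labelled mock and 183 ± 23.2 CPM in those labelled LPS_IFNg. It had 6363 ± 850 CPM in the libraries labelled TubB and 6793 ± 900 CPM in those labelled LPS_IFNg_TubB. Ptgs2, cyclooxygenase 2, had mean levels of 43.7, 44.0, 1781 and 1756 CPM in the same order. Every direction below is therefore a difference between libraries so labelled, and the labels were kept as deposited. Whether the 2 replicates of a label are separate cultures is not given in the sources used here, and the p-values rest on the variation among these libraries alone, which may be technical. Library totals ran from 4767894 to 8413834 counts. Of 8 macrophage markers listed, 7 had counts in the series and Mertk was at 0. Their summed level was 7892 to 7928 CPM in mock, 7906 to 8167 in LPS_IFNg, 9106 to 9636 in TubB and 9427 to 9649 in LPS_IFNg_TubB. Within that sum, for TubB minus mock, Adgre1 (log2 fold change 2.71 ± 0.15), Cd14 (0.98 ± 0.07), Itgam (0.80 ± 0.07) and Spi1 (0.36 ± 0.08) were called higher, Csf1r lower (-1.20 ± 0.09), and Lyz2 (0.02) and Cd68 (-0.11) were not called. Summed markers of T cells, B cells, epithelium and endothelium stayed at or below 0.680 CPM in every library, and those of fibroblasts at or below 2.93 CPM. Of 4 neutrophil markers, S100a9 and Ly6g were at 0, and S100a8 with Csf3r summed to 6.29 to 7.40 CPM in the libraries labelled mock or LPS_IFNg and to 37.4 to 57.1 CPM in the other libraries. Of 4 dendritic cell markers, Flt3 was at 0 and the sum was 40.1 to 54.5 CPM over all libraries, but its genes moved in opposite directions. Xcr1 had 0.140 and 0.721 CPM in mock, 0 and 0.340 in LPS_IFNg, 21.5 and 8.80 in TubB and 12.9 and 10.7 in LPS_IFNg_TubB, and passed the count filter only through the high libraries. Itgax was lower, with 43.4 and 39.2 CPM in mock against 32.3 and 30.9 in TubB. Some of these macrophage, neutrophil and dendritic cell markers thus differed between the same labels as the genes below, in both directions. Their part in the results below was not tested.

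The 5 genes lie at 5 separate places in the mouse assembly GRCm38.p6. Isg15 (gene ID 100038882) is at chr4:156199424-156200818 on the minus strand, with 2 exons that cover 756 bases. Uba7 is at chr9:107975567-107984056 on the plus strand, with 24 exons after merging and 3162 exonic bases. Ube2l6 is at chr2:84798828-84810003 on the plus strand, with 4 exons and 1387 exonic bases. Herc6, at chr6:57580992-57665136, and Usp18, at chr6:121245906-121270917, are both on the plus strand of one chromosome but far apart, with 23 exons (5279 bases) and 11 exons (1771 bases). The library kit did not mark the strand, so reads of overlapping genes cannot be told apart: an exon of Gm46878 overlaps 80 bases of Isg15, and LOC115490371 overlaps 124 bases of Usp18. Gm46878 had 0 counts in 7 libraries and 2 in the eighth, and LOC115490371 had 0 to 3 counts per library.

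Sequence shared with genes elsewhere was checked with runs of 50 bases of GENCODE M21 transcripts on the same build. Of the runs in Isg15 transcripts, 28 of 707 (3.96%) also occurred in 1 gene elsewhere, and of those in Ube2l6, 170 of 1653 (10.3%) occurred in 9 genes elsewhere. Uba7, Herc6 and Usp18 shared 0 of 3146, 4718 and 2038 runs. Reads from the shared stretches of Isg15 and Ube2l6 are uncertain in origin, which applies to each level of these genes below.

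RefSeq windows of 300 bases around the gene start (GRCm38.p6) were matched for 4 of the 5 genes. The 250 bases before the start are shown for the modifier and its E1 enzyme, because of the members with a window only these held any of the 3 motifs searched. Each sequence runs 5′ to 3′ on the strand of the gene, and capitals mark every base within a match of GAAANNGAAA, AANNGAAA or TTCNNNGAA on either strand. The stretches are chr4:156200819-156201068 on the minus strand for Isg15 and chr9:107975317-107975566 on the plus strand for Uba7.
Isg15: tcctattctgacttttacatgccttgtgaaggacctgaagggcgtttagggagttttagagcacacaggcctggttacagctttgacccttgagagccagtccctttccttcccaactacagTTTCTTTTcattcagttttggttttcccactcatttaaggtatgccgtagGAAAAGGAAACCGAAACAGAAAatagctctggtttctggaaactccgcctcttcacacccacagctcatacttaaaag
Uba7: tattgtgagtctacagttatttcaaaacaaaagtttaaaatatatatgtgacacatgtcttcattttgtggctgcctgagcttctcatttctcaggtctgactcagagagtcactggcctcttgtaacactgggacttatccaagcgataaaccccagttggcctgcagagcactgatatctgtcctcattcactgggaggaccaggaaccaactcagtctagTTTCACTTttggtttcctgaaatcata

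GAAANNGAAA is the core of the interferon-stimulated response element, AANNGAAA is a shorter site of interferon regulatory factors contained in it, and TTCNNNGAA is the palindromic gamma-activated site, known from genes that answer to IFN-γ. The Isg15 window held 3 overlapping matches of GAAANNGAAA, at -78 to -69, -72 to -63 and -66 to -57 from the start, within the run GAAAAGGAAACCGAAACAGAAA. Among 32851 windows of the same length, 3.44% held this core at least once and 5 windows (0.0152%) held it 3 or more times. The cut of 3 was the count in the Isg15 window itself, which is among those 5, and overlapping matches were counted separately. This share is therefore a description and no test of rarity. Isg15 also held 4 matches of AANNGAAA, of which 3 lie within that run and 1, at -128 to -121, is on the other strand. Uba7 held 1 match of AANNGAAA, at -27 to -20 on the other strand, a motif that 23.9% of windows held. TTCNNNGAA, in 8.3% of windows, was matched in none of the 4 members' windows. Ube2l6 and Herc6 matched none of the 3 motifs, which says only that these letters are not in these windows.

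All 5 genes were higher in the libraries labelled TubB than in those labelled mock, and all 5 were higher in the libraries labelled LPS_IFNg_TubB than in those labelled LPS_IFNg. For TubB against mock, Isg15, the modifier, differed by the largest fold, 52.3-fold, and Uba7, the E1 enzyme, by the smallest of the 5, 5.32-fold. For LPS_IFNg_TubB against LPS_IFNg, the largest fold was again that of Isg15 and the smallest that of Ube2l6. The test was edgeR's quasi-likelihood test with Benjamini-Hochberg adjustment over all 11081 genes and a threshold of 0.05. It called 51.2% of all genes tested in both comparisons, 26.3% higher and 24.9% lower for TubB minus mock and 26.2% higher and 25.0% lower for LPS_IFNg_TubB minus LPS_IFNg, so that a call on a single gene was common. Both libraries of one label lay above both of the other for all 5 members, as they did for 37.6% (TubB above mock) and 38.1% (LPS_IFNg_TubB above LPS_IFNg) of all genes tested. The median of the 5 log2 fold changes, given as a description, was 2.84 for TubB minus mock and 3.27 for LPS_IFNg_TubB minus LPS_IFNg, against -0.01 over all genes tested in both comparisons. Among all genes tested, the 5 ranked 79 (Isg15), 147 (Usp18), 257 (Herc6), 267 (Ube2l6) and 331 (Uba7) from the highest log2 fold change of TubB minus mock. In such bulk RNA, more cells that express a gene and more RNA of it per cell cannot be told apart.

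**Figure D1:**
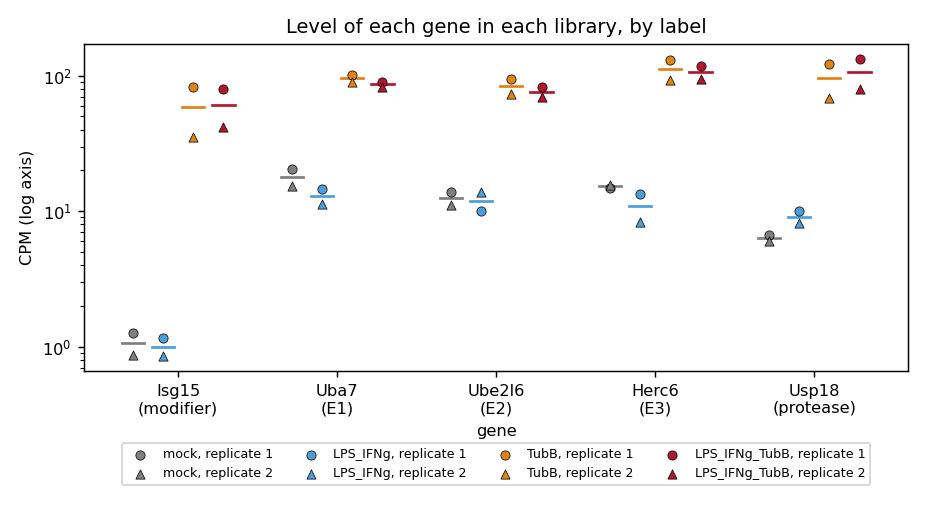
Level of each of the 5 genes in each library as CPM on a log axis, with circles for replicate 1, triangles for replicate 2 and a short line at the mean of each label. The libraries labelled TubB and LPS_IFNg_TubB lie above those labelled mock and LPS_IFNg for every gene, and Isg15 goes from about 1 CPM to between 35.1 and 82.1 CPM.

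Isg15, the modifier, had 9 and 6 counts (1.26 and 0.865 CPM) in replicates 1 and 2 labelled mock, and 374 and 279 counts (82.1 and 35.1 CPM) in those labelled TubB. In the libraries labelled LPS_IFNg it had 7 and 5 counts (1.15 and 0.849 CPM), and in those labelled LPS_IFNg_TubB 348 and 253 counts (79.9 and 41.8 CPM). The 4 low libraries overlapped each other, the 4 high libraries overlapped each other, and the lowest of the high libraries stood far above the highest of the low ones. Group means were 1.06 ± 0.276, 58.6 ± 33.3, 1.0 ± 0.214 and 60.8 ± 26.9 CPM (SD, n = 2) in mock, TubB, LPS_IFNg and LPS_IFNg_TubB. The log2 fold change was 5.71 ± 0.92 (SE; edgeR adjusted p = 0.00678) for TubB minus mock and 5.87 ± 0.96 (adjusted p = 0.00722) for LPS_IFNg_TubB minus LPS_IFNg. Both tests carry the limit given above, that Isg15 was tested only because it was high in these libraries. From summed counts alone, 653 against 15, the ratio of TubB to mock was 49.1 with an exact 95% interval of 29.5 to 88.1, which covers counting error only. That of LPS_IFNg_TubB to LPS_IFNg, 601 against 12 counts, was 57.6 (32.7 to 112).

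Isg15 was not called when either library of the low label compared was left out, although its log2 fold change stayed similar. Without mock replicate 1 the log2 fold change of TubB minus mock was 6.0 (edgeR adjusted p = 0.0529), and without mock replicate 2 it was 5.47 (adjusted p = 0.0532). Without LPS_IFNg replicate 1 or 2, that of LPS_IFNg_TubB minus LPS_IFNg was 6.10 (adjusted p = 0.0553) or 5.67 (adjusted p = 0.0546). With limma-voom in place of edgeR, Isg15 was also not called, with adjusted p = 0.0970 for TubB minus mock and 0.107 for LPS_IFNg_TubB minus LPS_IFNg. Without TubB replicate 1, the log2 fold change of TubB minus mock was 5.02 (adjusted p = 1.54e-06), and without TubB replicate 2 it was 6.25 (adjusted p = 7.61e-06). Isg15 stayed higher in the libraries labelled TubB or LPS_IFNg_TubB in each of these fits.

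Uba7, the E1 enzyme that activates ISG15, had 20.5 and 15.3 CPM in the libraries labelled mock and 101 and 90.1 CPM in those labelled TubB. It had 14.7 and 11.4 CPM in those labelled LPS_IFNg and 90.4 and 82.3 CPM in those labelled LPS_IFNg_TubB. The high and low libraries did not overlap. On the log2 CPM scale, replicate 1 was above replicate 2 by 0.17 in TubB and 0.14 in LPS_IFNg_TubB. The difference was larger in the low labels, 0.42 in mock and 0.36 in LPS_IFNg. Means were 17.9 ± 3.69, 95.8 ± 8.04, 13 ± 2.31 and 86.4 ± 5.77 CPM (SD, n = 2) for mock, TubB, LPS_IFNg and LPS_IFNg_TubB. The log2 fold change was 2.41 ± 0.14 for TubB minus mock (edgeR adjusted p = 1.27e-14) and 2.72 ± 0.15 for LPS_IFNg_TubB minus LPS_IFNg (adjusted p = 5.98e-15). Its counts in the 4 low libraries, 67 to 147, were well above those of Isg15.

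Ube2l6, the E2 enzyme that takes ISG15 over from UBA7, had 13.8 and 11.1 CPM in the libraries labelled mock and 94.9 and 73.6 CPM in those labelled TubB. Its levels were 10.0 and 13.8 CPM in those labelled LPS_IFNg and 82.2 and 69.9 CPM in those labelled LPS_IFNg_TubB. The libraries again fell into a low set of 4 and a high set of 4, with overlap between the labels inside each set. The log2 fold change was 2.74 ± 0.16 (edgeR adjusted p = 1.51e-13) for TubB minus mock and 2.67 ± 0.17 (adjusted p = 7.71e-13) for LPS_IFNg_TubB minus LPS_IFNg. Group means were 12.5 ± 1.92, 84.2 ± 15, 11.9 ± 2.63 and 76.0 ± 8.69 CPM (SD, n = 2) for mock, TubB, LPS_IFNg and LPS_IFNg_TubB.

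Herc6, the E3 ligase, had 14.9 and 15.7 CPM in the libraries labelled mock and 130.2 and 92.1 CPM in those labelled TubB. It had 13.5 and 8.32 CPM in the libraries labelled LPS_IFNg and 117.1 and 95.2 CPM in those labelled LPS_IFNg_TubB. No low library reached a high one, and replicate 1 was above replicate 2 in all labels but mock. The log2 fold change was 2.84 ± 0.21 (edgeR adjusted p = 2.46e-07) for TubB minus mock and 3.27 ± 0.23 (adjusted p = 1.51e-07) for LPS_IFNg_TubB minus LPS_IFNg.

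Usp18, the protease that removes ISG15, had 6.70 and 6.06 CPM in the libraries labelled mock and 123 and 68.7 CPM in those labelled TubB. It had 10.04 and 8.15 CPM in the libraries labelled LPS_IFNg and 133 and 79.5 CPM in those labelled LPS_IFNg_TubB. The high libraries lay well above the low ones, but the replicates of each high label differed widely, with means of 95.6 ± 38.1 CPM in TubB and 106 ± 37.8 CPM in LPS_IFNg_TubB (SD, n = 2). The log2 fold change was 3.87 ± 0.52 (edgeR adjusted p = 0.00338) for TubB minus mock and 3.52 ± 0.51 (adjusted p = 0.00427) for LPS_IFNg_TubB minus LPS_IFNg. The fold, 14.6 for TubB against mock, was second to that of Isg15. On the deposited rlog scale, which draws low counts towards their mean, the log2 differences of TubB minus mock were smaller for all 5 genes, from 1.51 for Uba7 to 2.65 for Isg15, and all 5 were called by limma.

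**Figure D2:**
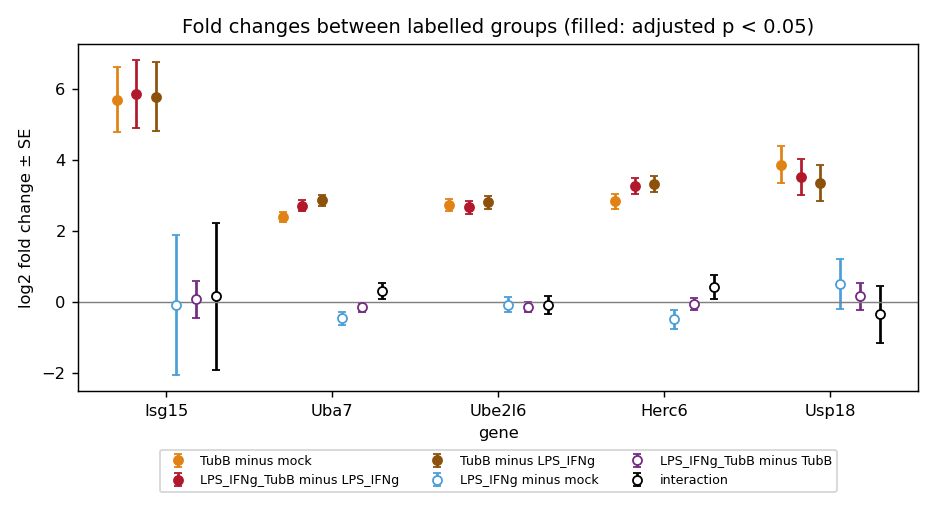
Log2 fold change with its SE for each gene (x axis) in 5 comparisons of labels and in the interaction, from edgeR's quasi-likelihood fit over 8 libraries, with filled points for adjusted p under 0.05. The 3 comparisons across the low and high libraries lie between 2.41 and 5.87, and the other points lie near 0, with wide errors for Isg15.

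The comparison of the libraries labelled TubB with those labelled LPS_IFNg sets the compound alone beside the stimulus alone only as labelled, since Nos2 and Ptgs2 go against these labels, and it shares its libraries with the comparisons above. All 5 genes were higher in those labelled TubB, without overlap. There edgeR called 50.8% of all genes tested, 26.1% higher and 24.7% lower, and 37.7% were higher without overlap. The log2 fold changes were 5.79 ± 0.97 for Isg15 (adjusted p = 0.00777), 2.87 ± 0.15 for Uba7 (1.38e-15), 2.81 ± 0.17 for Ube2l6 (2.15e-13), 3.33 ± 0.23 for Herc6 (1.22e-07) and 3.36 ± 0.51 for Usp18 (0.00520). The test of Isg15 again carries the limit that it passed the count filter only through the libraries where it was high. Here too Isg15 was not called without LPS_IFNg replicate 1 (adjusted p = 0.0585), without LPS_IFNg replicate 2 (0.0581) or with limma-voom (0.116). Without TubB replicate 1 its log2 fold change was 5.11 (adjusted p = 2.20e-06), and without TubB replicate 2 it was 6.34 (9.77e-06).

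The comparison of LPS_IFNg with mock asks what the stimulus did without the compound, as labelled. None of the 5 genes was called: edgeR called 0 of 5, and 0% of all 11081 genes, at an adjusted p under 0.05. DESeq2, limma-voom and limma on the deposited rlog values, a regularised log2 scale, also called 0 genes. At an unadjusted p under 0.05, edgeR had 247 genes (2.23%), Uba7 among them. Uba7 had a log2 fold change of -0.46 ± 0.18 (95% interval -0.82 to -0.09; unadjusted p = 0.0156, adjusted p = 1), and both libraries labelled LPS_IFNg were below both labelled mock. Herc6 was also without overlap on the lower side, with -0.49 ± 0.28 (-1.09 to 0.12), and Usp18 on the higher side, with 0.51 ± 0.72 (-1.41 to 2.43). Isg15 and Ube2l6 overlapped between the labels. Such separation of 2 libraries from 2 was seen on the higher side for 15.8% and on the lower side for 14.7% of all genes tested. For Isg15 the fitted interval, -5.43 to 5.26 around -0.08, was too wide to limit the difference, while summed counts of 12 against 15 gave a ratio of 0.943 with an exact 95% interval of 0.403 to 2.16, for counting error only. Ube2l6 had -0.07 ± 0.21 (-0.50 to 0.36).

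The comparison of LPS_IFNg_TubB with TubB asks, as labelled, what the stimulus adds to the compound, although Nos2 and Ptgs2 had similar mean levels in the libraries labelled TubB and LPS_IFNg_TubB. All 5 genes overlapped between these labels, while 13.4% of all genes tested were higher and 13.4% lower without overlap. Here edgeR called 0 of 5 and 0% of all genes at an adjusted p under 0.05, with 269 genes (2.43%) at an unadjusted p under 0.05 and 0 genes by DESeq2, limma-voom or limma on rlog values. The log2 fold change was 0.08 (95% interval -1.35 to 1.5) for Isg15, -0.15 (-0.40 to 0.10) for Uba7 and -0.14 (-0.42 to 0.14) for Ube2l6. It was -0.06 (-0.44 to 0.32) for Herc6 and 0.16 (-0.86 to 1.19) for Usp18. Adjusted p was 0.999 for each. The intervals are narrow for the E1, E2 and E3 enzymes and leave room for a change of more than 2-fold in either direction for Isg15 and, on the higher side, Usp18.

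The interaction asks, as labelled, whether the difference between libraries with and without Tubuloside B was the same with and without the stimulus, under the same conflict of labels and markers. For it edgeR again called 0 of 5 members and 0% of all genes, with 277 genes (2.50%) at an unadjusted p under 0.05 and 0 genes by the other 3 tools. The difference of log2 fold changes was 0.16 ± 2.07 for Isg15, 0.31 ± 0.22 for Uba7, -0.07 ± 0.25 for Ube2l6, 0.43 ± 0.33 for Herc6 and -0.35 ± 0.81 for Usp18 (SE; adjusted p = 1.0 for each). These errors do not show that the differences were equal: for Herc6 the 95% interval ran from -0.29 to 1.15 and for Usp18 from -2.52 to 1.82.

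The make-up of the system differed between the low and high libraries. Levels were compared between genes as CPM per kilobase of exon. In the libraries labelled mock the order was Ube2l6 (mean 8.98 CPM per kilobase), Uba7 (5.66), Usp18 (3.60), Herc6 (2.90) and Isg15 (1.40). In those labelled TubB it was Isg15 (77.5), Ube2l6 (60.7), Usp18 (54.0), Uba7 (30.3) and Herc6 (21.1). In those labelled LPS_IFNg it was Ube2l6 (8.58), Usp18 (5.14), Uba7 (4.12), Herc6 (2.07) and Isg15 (1.32), and in those labelled LPS_IFNg_TubB Isg15 (80.5), Usp18 (60.0), Ube2l6 (54.8), Uba7 (27.3) and Herc6 (20.1). Isg15 thus stood last in the low libraries and first by mean in the high ones, although its replicates there overlapped those of Ube2l6 and Usp18, which also overlapped each other. Usp18 and Uba7 overlapped in LPS_IFNg, and no other neighbours in these orders overlapped. As a share of the 5 genes' summed level per kilobase, Isg15 took 5.4 to 7.05% in the 4 low libraries and 25.2 to 36.3% in the 4 high libraries. Its level and share in each low library rest on 5 to 9 counts.

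**Figure D3:**
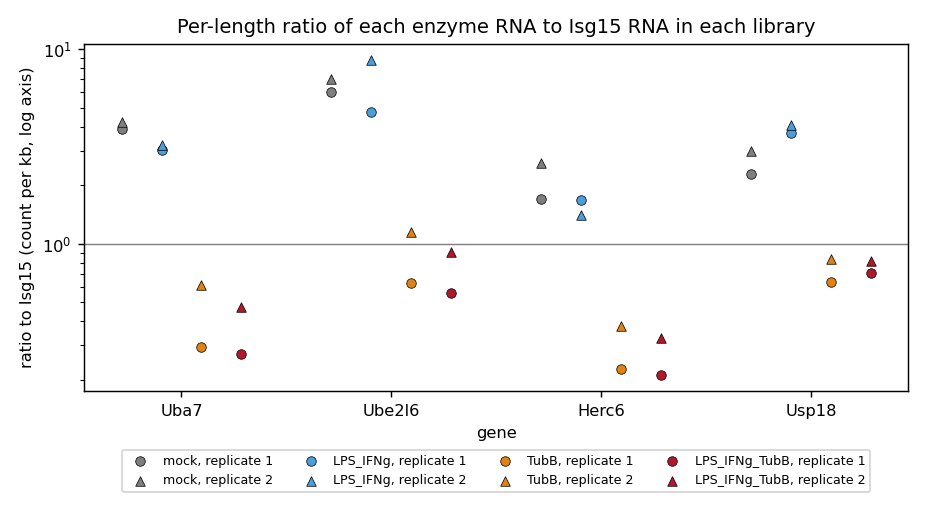
Ratio of each enzyme's count per kilobase to that of Isg15 in the same library, on a log axis, with circles for replicate 1, triangles for replicate 2 and a grey line at equal level. In the libraries labelled mock and LPS_IFNg the ratios lie between 1.40 and 8.83, and in those labelled TubB and LPS_IFNg_TubB between 0.210 and 1.14.

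A ratio of members within a library needs no scaling between libraries. The ratio of Uba7 to Isg15 per kilobase was 3.91 to 4.22 in mock, 3.04 to 3.20 in LPS_IFNg, 0.295 to 0.614 in TubB and 0.271 to 0.471 in LPS_IFNg_TubB. That of Ube2l6 was 6.0 to 7.0, 4.75 to 8.83, 0.630 to 1.14 and 0.561 to 0.911 in the same order. The low and high libraries did not overlap in either ratio. The ratio of Herc6 to Isg15 was 1.70 to 2.60 in mock, 1.40 to 1.68 in LPS_IFNg, 0.227 to 0.376 in TubB and 0.210 to 0.326 in LPS_IFNg_TubB. That of Usp18, the deconjugating enzyme, was 2.28 to 2.99, 3.72 to 4.10, 0.637 to 0.837 and 0.710 to 0.812. The low and high libraries did not overlap in these ratios either, and the low labels overlapped each other for Ube2l6 alone. In CPM, TubB lay above mock without overlap for 37.6% of all genes tested. LPS_IFNg lay above mock without overlap for 15.8% and below it for 14.7%. Each ratio in a low library rests on 5 to 9 counts of Isg15. These ratios restate the fold changes within each library and were not tested. Without division by length every enzyme had a mean count above that of Isg15 in the high libraries, so a level below Isg15 there depends on the length, while the drop between labels does not.

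Replicates of the high labels differed most in the modifier and the protease. Between the replicates labelled TubB, Isg15 differed by 1.22 on the log2 CPM scale (replicate 1 above 2), Usp18 by 0.83, Herc6 by 0.50, Ube2l6 by 0.36 and Uba7 by 0.17. A larger value of replicate 1 minus 2 was seen for 0.496% of all genes tested in the case of Isg15, 1.44% for Usp18, 5.16% for Herc6, 8.93% for Ube2l6 and 23.0% for Uba7. The order of the 5 genes was the same between the replicates labelled LPS_IFNg_TubB, where Isg15 differed by 0.93, Usp18 by 0.74, Herc6 by 0.30, Ube2l6 by 0.23 and Uba7 by 0.14. All 5 were thus higher in replicate 1 of both high labels. Isg15, Uba7 and Usp18 were also higher in replicate 1 of mock (by 0.41, 0.42 and 0.14) and of LPS_IFNg (by 0.33, 0.36 and 0.29). Replicate 1 had fewer total counts than replicate 2 in TubB (5017410 against 8413834) and in LPS_IFNg_TubB (4767894 against 6443351). A part of depth in these differences was not tested. The SD of this difference over all genes tested was 0.379 in TubB and 0.398 in LPS_IFNg_TubB. Genes of interferon signalling also differed: between the replicates labelled TubB, Irf7 differed by 0.87, Ifih1 by 0.87 and Stat2 by 0.48, against 0.11 for Irf1. In the low labels the differences were between -0.44 (Ube2l6, LPS_IFNg) and 0.68 (Herc6, LPS_IFNg), and those of Isg15 there, 0.41 and 0.33, rest on 5 to 9 counts.

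**Figure D4:**
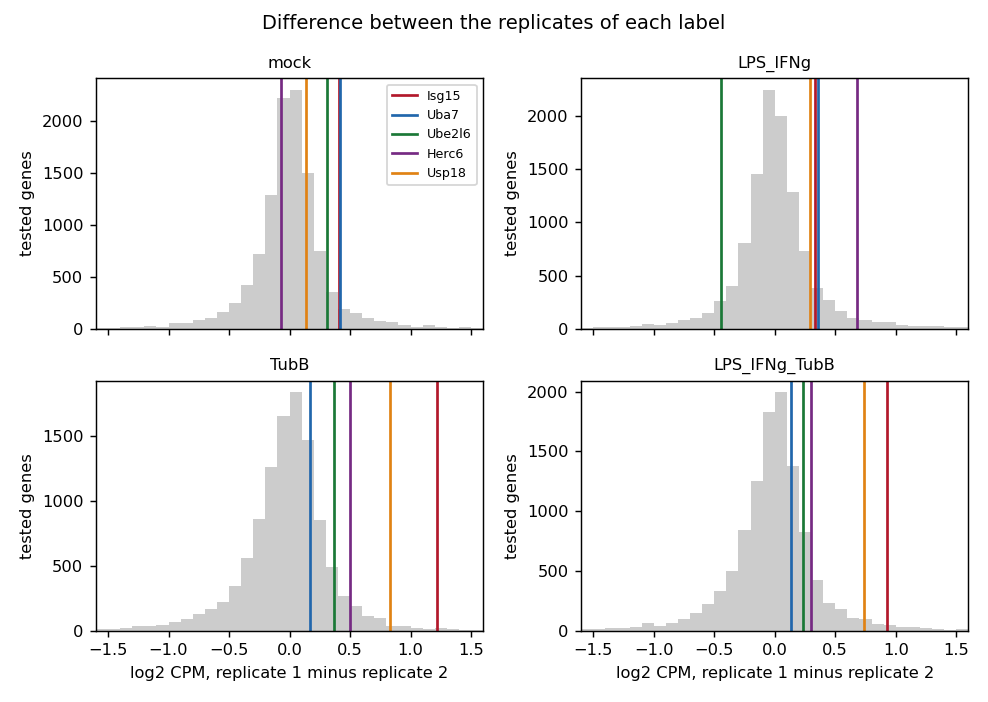
Histograms of the difference between replicates 1 and 2 in log2 CPM over all genes tested, in bins of 0.1 from -1.6 to 1.6, one panel per label, with a line for each of the 5 genes. In the panels TubB and LPS_IFNg_TubB all 5 lines lie right of 0, with Isg15 (1.22 and 0.93) and Usp18 (0.83 and 0.74) farthest out.

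The genes with the most similar pattern to each member were ranked by the root mean square difference of log2 CPM over 8 libraries, each gene centred on its own mean. For Isg15 they were Cmpk2, a mitochondrial nucleotide kinase induced by interferon (0.20), Ptgs2 (0.23) and Xaf1 (0.24). For Usp18 they were Stat2 (0.23), Dhx58, which encodes the RNA sensor LGP2 (0.24), and Egr1 (0.25). For Uba7 they were H2-T24 (0.17), Mov10 (0.17) and Nfkbiz (0.19), for Ube2l6 Prdx5 (0.10), Pde4b (0.14) and Cxcl2 (0.14), and for Herc6 Lcn2 (0.16), Rasa4 (0.21) and Cstdc4 (0.22). No member was among the 3 nearest genes of another, since members were left out of this ranking. Between members the closest were Uba7 and Ube2l6 (0.25), then Uba7 and Herc6 (0.30), and the farthest Isg15 and Uba7 (1.46). The measure includes the size of the difference between the low and high libraries as well as the variation within each set. Xaf1, with 5 to 8 counts in the low libraries, and Cstdc4, with 3 to 15, would not have passed the count filter without the high libraries.

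Genes of the wider ISG15 pathway were described from lists, by the number called and the median log2 fold change. Over all genes tested, the median was -0.01, and edgeR called 26.3% higher and 24.9% lower for TubB minus mock and 26.2% higher and 25.0% lower for LPS_IFNg_TubB minus LPS_IFNg. The type I interferon receptor complex and its transcription factors had 7 of 10 tested genes higher and 1 lower for TubB minus mock (median 1.76), and 8 higher and 1 lower for LPS_IFNg_TubB minus LPS_IFNg (median 1.78). Irf1, a transcription factor induced by IFN-γ, differed by 6.71 ± 0.11, Irf7 by 4.87 ± 0.50 and Stat2 by 3.76 ± 0.22 (TubB minus mock, SE; edgeR adjusted p between 6.45e-28 and 0.00131). Irf7 had 6.56 and 5.91 CPM in mock, 7.41 and 7.47 in LPS_IFNg, 240 and 131 in TubB and 237 and 171 in LPS_IFNg_TubB. Its high and low libraries did not overlap, and its replicates labelled TubB differed about as much as those of Usp18. Irf3, which is known to be regulated as a protein more than as an RNA, was the 1 gene lower (36.8 and 36.4 CPM in mock, 27.0 and 27.9 CPM in TubB). Skp2, a ligase for USP18, was listed at 0 counts in all libraries, but the annotation holds a numbered copy of it elsewhere in the assembly, and reads that fit both places would have gone uncounted, so its level is uncertain.

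Of 7 tested genes for other ligases and proteases known to act on ISG15, 2 were higher, 2 lower and 3 not called for TubB minus mock (median 0.07), counts near the shares over all genes of 26.3% higher and 24.9% lower. Trim25, an interferon-inducible ligase, was higher by 0.97 ± 0.12, at 80.5 and 69.8 CPM in mock against 161 and 136 CPM in TubB. Trim25 also has a numbered copy elsewhere in the annotation that holds counts of its own, so its level is uncertain. Usp16 was higher by 0.25 ± 0.10 (edgeR adjusted p = 0.0452), near the threshold. Usp2 was lower by a log2 fold change of -0.77 ± 0.15 and Usp14, a protease of the proteasome, by -0.58 ± 0.08. For LPS_IFNg_TubB minus LPS_IFNg, 1 was higher and 3 were lower (median 0.04). Usp13, with at most 3 counts in a library, was not tested.

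Reported ISG15 substrates had 10 of 22 tested genes higher and 5 lower for TubB minus mock (median 0.17), beside 26.3% higher and 24.9% lower over all genes, and 10 higher and 4 lower for LPS_IFNg_TubB minus LPS_IFNg (median 0.20). Large differences were in RNA sensors and antiviral proteins that interferon itself induces: Ifih1 (MDA5) at 4.87 ± 0.51, Mx2 at 3.97 ± 1.07 and Ddx58 (RIG-I) at 2.28 ± 0.30 (TubB minus mock; edgeR adjusted p between 0.000114 and 0.00557). Mx2, with 0 to 4 counts in the low libraries and 12 to 33 in the high ones, passed the count filter only through the high libraries, so its difference was a condition of its being tested. Ifih1 had 2.23 and 1.44 CPM in mock, 2.14 and 1.19 in LPS_IFNg, 72.2 and 39.3 in TubB and 77.4 and 51.7 in LPS_IFNg_TubB, without overlap of low and high libraries. Mx1 had 0 to 11 counts in a library and was not tested. Both chains of LFA-1, the receptor for secreted ISG15, were higher: Itgal by 2.88 ± 0.12, from 14.5 and 14.6 CPM in mock to 107 and 107 CPM in TubB, and Itgb2 by 1.33 ± 0.07. Their median was 2.10 for TubB minus mock and 2.17 for LPS_IFNg_TubB minus LPS_IFNg.

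**Figure D5:**
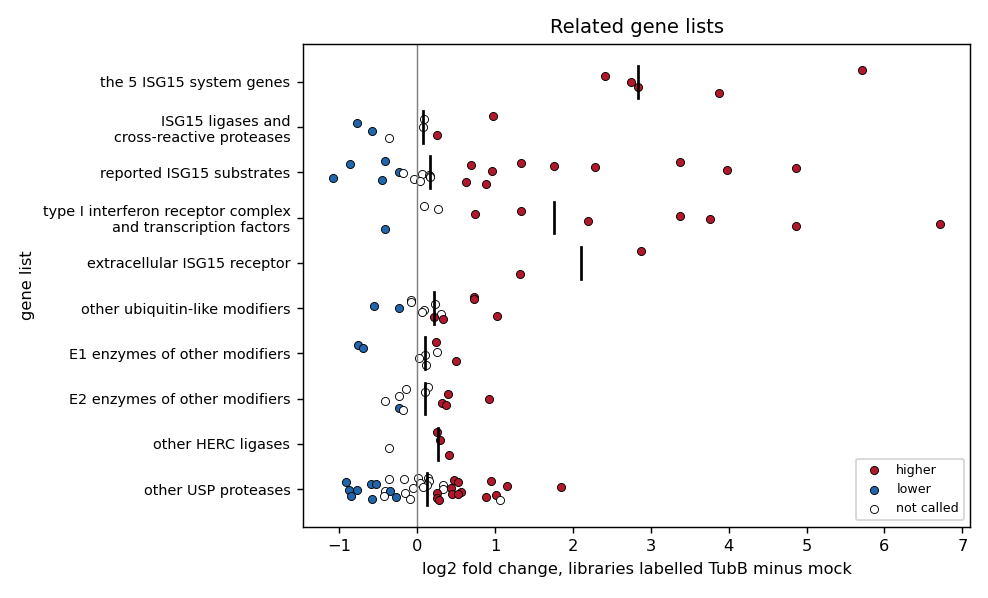
Log2 fold change of TubB minus mock (x axis) for each tested gene of the ISG15 system and of related lists (y axis), red for genes called higher, blue for lower, white for not called, with a black line at the median of each list. The 5 ISG15 system genes lie between 2.41 and 5.71, and the medians of the other modifiers, their enzymes, the HERC ligases and the USP proteases lie between 0.10 and 0.27.

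Lists of counterparts of each member, outside the 5 genes, had median log2 fold changes of 0.10 to 0.27 for TubB minus mock. Their counts of calls below stand beside 51.2% called over all genes. These lists are not separate from those above, and a gene in several lists was counted under each. The USP list holds the proteases described above as acting on ISG15, and the E2 list holds Ube2n and Ube2e1, also listed as substrates. Of 13 tested modifiers other than ISG15, 5 were higher and 2 lower for TubB minus mock (median 0.21), with Atg12 at 1.02 ± 0.13, the polyubiquitin gene Ubb at 0.74 ± 0.07 and Sumo2 at -0.56 ± 0.10. Without TubB replicate 1 the 7 calls fell to 4. The FAT10 gene Ubd, another interferon-inducible modifier, was listed at 0 counts in all libraries and has such numbered copies too, so its level is likewise uncertain. For LPS_IFNg_TubB minus LPS_IFNg, 6 modifiers were higher and 2 lower (median 0.23), and the 8 calls fell to 4 without LPS_IFNg replicate 1.

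Of 8 E1 enzymes and subunits other than Uba7, 2 were higher and 2 lower for TubB minus mock (median 0.11). Uba6 was at 0.50 ± 0.10 and the ubiquitin E1 Uba1 at 0.24 ± 0.07, while Uba2 and Sae1, the 2 subunits of the SUMO E1, were at -0.76 ± 0.09 and -0.70 ± 0.09. For LPS_IFNg_TubB minus LPS_IFNg 3 were higher and 2 lower (median 0.23), and these 5 calls fell to 2 without LPS_IFNg replicate 1 and to 3 without LPS_IFNg_TubB replicate 1. Of 11 other E2 enzymes, 4 were higher and 1 lower for TubB minus mock (median 0.10), with Ube2z, which carries ubiquitin or FAT10, highest at 0.93 ± 0.09. Ube2f, the NEDD8 enzyme, was at 0.40 ± 0.11, and the ubiquitin enzymes Ube2d3 and Ube2d2a at 0.38 ± 0.07 and 0.31 ± 0.10. The 5 calls fell to 3 without mock replicate 2. For LPS_IFNg_TubB minus LPS_IFNg the counts were again 4 higher and 1 lower (median 0.19), and fell to 3 calls without LPS_IFNg_TubB replicate 1.

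Of the 4 HERC ligases other than Herc6, Herc4 (0.41 ± 0.11), Herc2 (0.29 ± 0.09) and Herc1 (0.25 ± 0.09) were higher for TubB minus mock (median 0.27), but none of the 4 was called without mock replicate 2. For LPS_IFNg_TubB minus LPS_IFNg 0 were higher and Herc3 was lower (median 0.07), and that 1 call was lost without either mock library, without either LPS_IFNg library and without LPS_IFNg_TubB replicate 1. Of 39 tested USP proteases other than Usp18, 14 were higher, 9 lower and 16 not called for TubB minus mock (median 0.13), near the 51.2% called over all genes. The largest differences were in Usp35 (1.85 ± 0.28), Usp12 (1.15 ± 0.13), Usp32 (1.02 ± 0.12) and Usp53 (0.95 ± 0.21), all below the 3.87 of Usp18. For LPS_IFNg_TubB minus LPS_IFNg 10 were higher and 9 lower (median 0.02). In each of these lists 0 genes were called for LPS_IFNg minus mock, for LPS_IFNg_TubB minus TubB and for the interaction.

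The nearest protein-coding neighbours of each member were read after the members' values were seen. Over all genes tested, edgeR called 26.3% higher and 24.9% lower for TubB minus mock. For LPS_IFNg_TubB minus LPS_IFNg it called 26.2% higher and 25.0% lower. In these comparisons 37.6% and 38.1% of all genes were higher without overlap, so a difference in a neighbour was common. Perm1, a regulator of muscle mitochondria 2443 bases beyond Isg15 on the other strand, was higher by 3.93 ± 0.32 (edgeR adjusted p = 2.55e-07) for TubB minus mock and by 3.58 ± 0.31 (adjusted p = 5.13e-07) for LPS_IFNg_TubB minus LPS_IFNg. Perm1 had 3.07 and 3.32 CPM in mock, 1.81 and 7.14 in LPS_IFNg, 52.7 and 45.6 in TubB and 56.0 and 50.9 in LPS_IFNg_TubB, so its high and low libraries did not overlap. Agrn, 1890 bases to the other side of Isg15, was at 0.62 (not called) and 0.92 (called higher) in the same comparisons. Traip and Inka1, which flank Uba7 at 3296 and 166 bases, had log2 fold changes of -0.69 and -0.85 for TubB minus mock. For LPS_IFNg_TubB minus LPS_IFNg these were -0.70 and -0.89. Serping1 and Smtnl1, which flank Ube2l6, had too few counts to be tested, and Ppm1k and Pyurf, which flank Herc6, were not called in either comparison. Beside Usp18, Slc6a13 was not called, and Tuba8 was at 1.0 (not called) and 1.84 (called higher). Tuba8 had 9 and 10 counts in mock, 9 and 4 in LPS_IFNg, 8 and 27 in TubB and 17 and 24 in LPS_IFNg_TubB. It passed the count filter only through libraries of the high labels, so its difference was a condition of its being tested.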

How the data were processed

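Polyadenylated RNA of 8 RAW264.7 libraries was sequenced in 4 labelled groups of 2. The authors deposited raw counts per gene with, per the file headers, exon lengths in bases and featureCounts 2.0.1 as the counter (paired reads over exons, RefSeq annotation of GRCm38.p6, no option for strand or multi-mapped reads). Alignment was with STAR 2.7.0, per the submitters' processing notes. The deposited table of regularised log2 values (rlog) was used only as an alternative; how it was made is not given in the sources used here beyond its name.

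Counts were tested with edgeR 4.0.16 (R 4.3.3): TMM factors, filterByExpr by group (minimum count 10, minimum total 15), robust quasi-likelihood fit of 4 group means with 4 residual degrees of freedom, Benjamini-Hochberg adjustment over 11081 genes, called under 0.05. Totals of 4767894 to 8413834 counts make counting error small for most members, but not for Isg15 in the low libraries. Exact intervals cover counting error only, because they take counts alone and hold no variation between libraries. Reads carry no molecular identifiers. CPM use TMM-scaled totals; replicate differences and likeness use log2 CPM with a prior count of 2. Fits were tested on simulated counts. The 16 alternatives were another normalisation, other filters, a replicate block, fewer groups, 8 fits without a library, limma-voom and limma on rlog (limma 3.58.1) and DESeq2 1.42.0.

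The members and lists were chosen with earlier results of these data known, so no test over a list was made. Always named were the 5 members, Nos2 and Ptgs2; of each list, up to 4 called genes with the largest log2 fold change of TubB minus mock (some genes the rule names are not reported here); and for each member the 3 nearest genes by pattern. Herc3, Irf3, untested list members, marker genes and neighbours were named outside this rule after their values were seen, as were genes cited for replicate differences. Same-numbered libraries were not treated as pairs.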

Additional observations from a re-analysis of the deposited data

How the results depend on the processing

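In all, 16 alternatives were run, except that the compared groups alone gave no separate fit for the interaction, which uses all groups, and no value of Isg15 for LPS_IFNg minus mock, where it failed the count filter. Leaving out a library leaves its label with 1, whose spread is assumed to be like that of the others. Over all genes tested, same-numbered libraries deviated together only weakly (correlations of -0.052 to 0.15 between labels), so the replicate number was not taken as a pairing. Isg15, Uba7 and Usp18, however, were higher in replicate 1 of every label. With the replicate block, 5 of 5 members were called in each comparison of high with low labels and 0 in the others, and no member's call changed. Counts of members called ran from 4 to 5 in the 3 comparisons of high with low labels and were 0 in the other 3 under each alternative run; the 9 losses, all of Isg15, came without a library of the low label compared or with limma-voom (log2 fold change 5.45, 5.69 and 5.51 for TubB minus mock, LPS_IFNg_TubB minus LPS_IFNg and TubB minus LPS_IFNg). Of 474 alternative values of member fold changes, 444 kept direction and call and 21 changed sign, all of uncalled values. Leaving out each library, LPS_IFNg minus mock ran from -0.32 to 0.21 for Isg15 (0.032 with limma on rlog) and from -0.31 to 0.14 for Ube2l6. LPS_IFNg_TubB minus TubB ran from -0.46 to 0.77 for Isg15, -0.33 to 0.040 for Ube2l6, -0.31 to 0.20 for Herc6 and -0.24 to 0.61 for Usp18. The interaction ran from -0.38 to 0.86 for Isg15, -0.28 to 0.17 for Ube2l6 and -0.75 to 0.10 for Usp18. Of 855 list counts, 22 moved by over 1.5 times. Beyond those already given, E1 calls for LPS_IFNg_TubB minus LPS_IFNg went from 5 to 3 with DESeq2, and the 1 HERC call to 0 with no count filter, limma-voom or DESeq2. For TubB minus LPS_IFNg, E2 calls went from 5 to 3 with the compared groups alone, DESeq2 or without LPS_IFNg replicate 1, E1 calls from 5 to 3 without that library, and the 1 HERC call to 0 with DESeq2 or without LPS_IFNg replicate 2. The causes were not tested. Without division by length, the mean log2 ratio to Isg15 in mock, LPS_IFNg, TubB and LPS_IFNg_TubB was 4.09, 3.71, 0.83 and 0.58 for Uba7; 3.57, 3.57, 0.64 and 0.39 for Ube2l6; 3.88, 3.42, 1.03 and 0.87 for Herc6; and 2.61, 3.19, 0.77 and 0.83 for Usp18, a fixed shift for each gene. Isg15 had 5 to 9 counts in each low library, and its adjusted p for TubB minus mock ranged from 1.17e-30 to 0.0970 over the alternatives.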
